A study of Mus musculus with 10 samples.

Results

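Interferon response genes are described here in CD8 T cells that carried an eGFP control, NFAT5 or CA-RIT NFAT1 retrovirus and were recovered from mouse tumours. The set was a given list of 49 gene symbols, found by symbol in the GENCODE M21 mouse annotation, out of 54337 annotated genes. No expression value entered the rule. All 49 symbols were found, and all 49 passed the filter on low counts in the 8 libraries compared.

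Type I and type III interferons are secreted when cells sense foreign or misplaced nucleic acid, and type II interferon (interferon gamma) is a main product of activated CD8 T cells. Signalling from type I and III receptors, through Stat2 and Irf9, acts on the interferon-stimulated response element (ISRE), and signalling from the interferon gamma receptor acts on the gamma-activated site (GAS). The induced genes encode sensors of viral nucleic acid, enzymes and GTPases that block replication, and feedback inhibitors. In T cells they are known as a readout of interferon in the surroundings and, for a subset, of T cell activation.

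For 24 h the study activated CD8 T cells whose transgenic receptor (TCRP1A) recognises the tumour antigen P1A, and then transduced them with a retrovirus. After a further 24 h they were transferred into Rag1-/- B10D2 mice, which lack their own T and B cells, bearing P511 mastocytoma, and 7 days later the CD8 cells of the tumours were sorted for RNA sequencing. The vectors were empty apart from eGFP (control libraries 3, 6 and 7) or encoded NFAT5, a Rel-family factor best known from osmotic stress (libraries 1, 5 and 8), or CA-RIT NFAT1, a constitutively active NFAT1 built so that it does not pair with AP-1 (libraries 2, 4, 9 and 10). All 3 groups thus shared the receptor, the activation, the transduction, the host and the tumour, and differed in the vector insert. The labels give the strain as C57BL/6 throughout, which differs from the B10D2 recipients of the design text, and the animals' age is not given in the sources used here. Expression of the insert is driven by a retroviral vector, so the level can differ between cells, and the sort was described by CD8 alone. Separate mice are not stated as the source of a group's libraries, and the p-values therefore cover the spread among these samples only, which may be technical.

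Of the 10 libraries, 9 held 18.8 to 36.6 M estimated reads and eGFP control 7 held 51112. CA-RIT NFAT1 10 stood apart: its T cell markers summed to 220.5 CPM (gene reads scaled to a common library total), against 27020 to 42180 CPM in the 8 libraries compared, and its macrophage, mast cell and dendritic cell markers summed to 5490, 5122 and 5234 CPM, against at most 275, 267 and 1793 CPM. Both libraries were left out of the comparisons, and the counts of called members are also given with all 10. Nfat5 lay at 47.99 to 87.0 CPM in the NFAT5 libraries and at no more than 10.7 CPM in the others. Nfatc2, which encodes NFAT1, lay at 30.0 to 88.8 CPM with CA-RIT NFAT1, at 36.6 to 70.0 with NFAT5 and at 4.00 and 47.4 in the eGFP controls. eGFP control 3 listed 445 of 9298 moderately expressed genes (a mean of 5 CPM or more) at 0 reads, 4.79%, against at most 12 in any other of the 8. The CD8 T cell label was met by those 8 libraries, in which all 10 T cell markers were read, and not by CA-RIT NFAT1 10, where Cd8a was at 0.0308 CPM.

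Many promoters of the set hold the ISRE, and examples are shown because this is what members share in sequence, a feature the choice of members did not use. A RefSeq window (GRCm38.p6, 250 bases before to 50 after the start) was available for 38 of the 49 members. The ISRE core was searched on both strands as GAAA and GAAAC separated by any 2 bases, and read on the other strand it is GTTTC and TTTC. It was found in 17 of the 38 windows, 44.7%, against 255 of 27025 genes with a window, 0.944%. Of the 25 matches over all windows of these members, 22 lay before the start, and 1 overlapped a match to the GAS core, which was searched as TTC and GAA separated by any 3 bases. Matches were counted by window, so the same Slfn8 match entered at 49 and again at 137 bases before a start. The GAS core itself stood in 9 of 38 member windows, 23.7%, against 9.55% of genes. A match is a description of letters, and no binding was measured here. In the stretches below, from RefSeq, capitals mark the ISRE core:
Isg15: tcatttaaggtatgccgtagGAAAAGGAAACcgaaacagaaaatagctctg
Ifit1: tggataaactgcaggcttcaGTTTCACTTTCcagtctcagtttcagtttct
Ifit3: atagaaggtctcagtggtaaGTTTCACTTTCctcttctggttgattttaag
Ifit3b: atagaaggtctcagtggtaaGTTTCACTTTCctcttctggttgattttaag
Oas1a: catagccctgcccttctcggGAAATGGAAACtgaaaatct
Stat2: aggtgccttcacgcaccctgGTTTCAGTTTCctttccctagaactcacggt
Gbp2: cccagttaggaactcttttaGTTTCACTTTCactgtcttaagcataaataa
Irgm1: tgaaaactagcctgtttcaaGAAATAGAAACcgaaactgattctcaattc
Phf11b: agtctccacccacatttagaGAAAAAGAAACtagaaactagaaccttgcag

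In GRCm38.p6 these lie at chr4:156200866-156200916 on the minus strand, chr19:34640764-34640814 on the plus strand, chr19:34583352-34583402 on the plus strand, chr19:34607748-34607798 on the plus strand, chr5:120907526-120907565 on the minus strand, chr10:128270255-128270305 on the plus strand, chr3:142620583-142620633 on the plus strand, chr11:48871421-48871470 on the minus strand and chr14:59341350-59341400 on the minus strand, in the order shown. Both stretches around an ISRE match in the Ifit3 window were identical to those in the Ifit3b window. The remaining members with a match were Bst2, Ifih1, Trim30a, Gbp3, Gbp5, Gbp7, Eif2ak2 and Slfn8. Without the last C of the core, 25 of 38 windows held a match, 65.8%, against 3.99% of genes. Among the 8 members this added were Rsad2 and 4 genes of the PYHIN cluster on chromosome 1. Rsad2 and 3 of the 4, which share nearly the same letters, are shown with the shortened core in capitals:
Rsad2: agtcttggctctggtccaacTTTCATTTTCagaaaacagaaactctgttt
Ifi206: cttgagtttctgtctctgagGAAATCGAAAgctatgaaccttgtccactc
Ifi213: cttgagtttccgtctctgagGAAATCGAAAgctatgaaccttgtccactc
Ifi208: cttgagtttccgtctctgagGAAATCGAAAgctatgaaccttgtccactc

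These lie at chr12:26456543-26456592 on the minus strand, chr1:173491329-173491378 on the minus strand, chr1:173599316-173599365 on the minus strand and chr1:173673587-173673636 on the plus strand. In fitted log2 fold changes, the 17 members with an ISRE core had a median of -0.18 for NFAT5 against eGFP, -0.13 for CA-RIT NFAT1 against eGFP and -0.08 for CA-RIT NFAT1 against NFAT5. The 21 without one had medians of 0.17, 0.08 and -0.03. Both sets held genes on either side of 0 in each comparison. Higher were 7, 8 and 8 of the 17 and 12, 12 and 8 of the 21. All genes had medians of 0.08, 0.10 and 0.00. The 21 include the 8 members that match the shortened core alone, with Rsad2, Ifi206, Ifi213 and Ifi208 among them. The split therefore depends on how the core is written, and the difference between the sets was not tested.

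The heat map of all members by library shows how widely the set was read. Levels of different genes are compared in TPM, which scale reads to transcript length and library total, as means over the 8 libraries. The highest was Bst2 at 183 TPM (tetherin, which holds budding viruses at the cell surface), followed by Phf11b at 165, Zbp1 at 149.8, Xaf1 at 106 and Ifi35 at 102. The lowest were Oas2 at 0.102, Mx2 at 0.234, Ifi44 at 0.283 and Iigp1 at 0.954 TPM. The 49 members together took 0.219% to 0.377% of the reads of a library. In the 8 libraries 43 members had a mean of 5 CPM or more, and the 6 below it were Mx2, Oas2, Oasl2, Ifi44, Ifi204 and Iigp1.

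**Figure D1:**
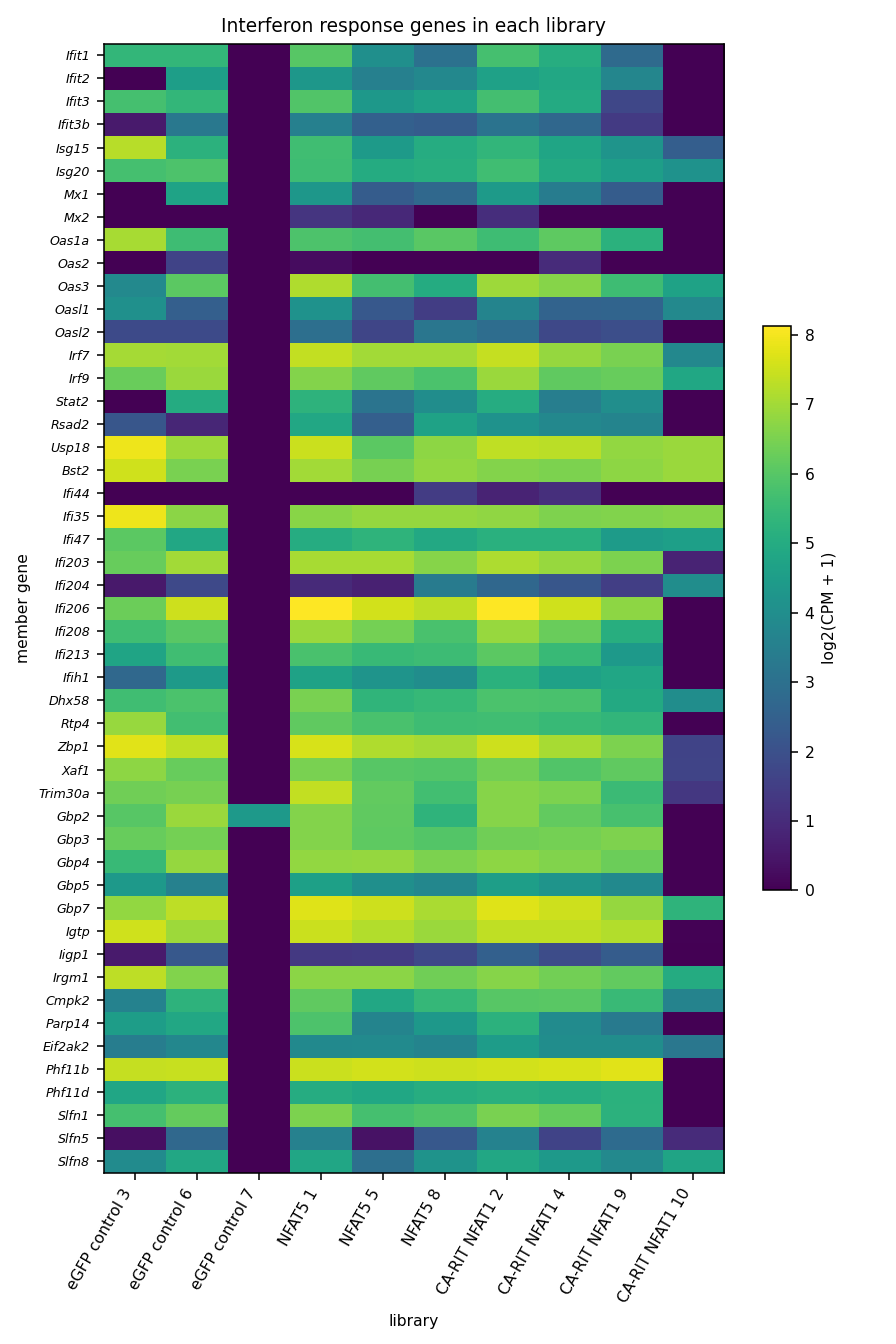
Heat map of log2(CPM + 1) for the 49 member genes (vertical axis) in the 10 libraries (horizontal axis), with darker colours for lower levels. eGFP control 7 shows a single member with a read, and CA-RIT NFAT1 10 shows 26 of 49 members at 0, while each of the 8 other libraries shows at most 6 members at 0.

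Values below are CPM, with the eGFP controls in the order 3 and 6, NFAT5 in the order 1, 5 and 8, and CA-RIT NFAT1 in the order 2, 4 and 9. Among the signal transducers, Irf7, the transcription factor that amplifies type I interferon, was read at 130.3 and 127 CPM in the eGFP controls, 166, 126 and 126 with NFAT5 and 168, 113.5 and 89.2 with CA-RIT NFAT1. Irf9, the DNA-binding partner of Stat2, was at 75.6 and 119 CPM in the eGFP controls, 97.4, 69.6 and 55.8 with NFAT5 and 119, 69.2 and 74.0 with CA-RIT NFAT1. Stat2, which carries the receptor signal, was at 0 and 31.3 CPM in the eGFP controls, 37.4, 7.73 and 14.9 with NFAT5 and 31.7, 10.1 and 15.1 with CA-RIT NFAT1. In all 3 genes NFAT5 1 and CA-RIT NFAT1 2 were the highest libraries of their groups, and the groups overlapped. Stat2 was listed at 0 in eGFP control 3, a library in which other genes read everywhere else were also at 0.

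The sensors detect viral nucleic acid. Zbp1, a sensor of left-handed nucleic acid, lay at 218 and 163 CPM in the eGFP controls, 199.8, 142 and 129 with NFAT5 and 180.3, 134 and 91.4 with CA-RIT NFAT1. Dhx58 (LGP2), a regulator of RNA sensing, lay at 48.6 and 55.3 CPM in the eGFP controls, 89.4, 39.2 and 42.8 with NFAT5 and 56.1, 54.2 and 29.8 with CA-RIT NFAT1. Ifih1 (MDA5), a sensor of long double-stranded RNA, lay at 5.67 and 20.5 CPM in the eGFP controls, 24.9, 17.5 and 14.9 with NFAT5 and 35.2, 24.4 and 27.1 with CA-RIT NFAT1. All 3 CA-RIT NFAT1 values of Ifih1 were above both eGFP values, while Zbp1 and Dhx58 overlapped between groups. Coding transcripts held 42.2% of the Ifih1 reads in eGFP control 3 and 72.65% to 92.3% in the other libraries compared. Eif2ak2, the kinase PKR that stops translation on double-stranded RNA, was low and even, at 9.88 and 12.6 CPM in the eGFP controls, 13.6, 13.9 and 11.7 with NFAT5 and 21.3, 14.9 and 14.8 with CA-RIT NFAT1. Its CA-RIT NFAT1 libraries were above all 5 others.

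The PYHIN genes, a family of nuclear and cytosolic DNA-binding proteins, lie together on chromosome 1. Ifi206 was at 77.7 and 181 CPM in the eGFP controls, 278.5, 187 and 158 with NFAT5 and 275, 186.5 and 106 with CA-RIT NFAT1. Ifi203 was at 74.5 and 128 CPM in the eGFP controls, 132, 134 and 99.8 with NFAT5 and 139.9, 115.5 and 91.6 with CA-RIT NFAT1. In both, eGFP control 3 was the lowest of the 8 libraries, and the groups overlapped. Ifi208 ran from 33.25 to 118 CPM, Ifi213 from 19.8 to 65.9 and Ifi204 from 0.466 to 9.39. Their sequences are close, so the split of reads among these genes is uncertain.

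Oligoadenylate synthetases (OAS) make the messenger that activates RNase L, and the Oas and Oasl genes lie on chromosome 5. Oas3 was at 13.1 and 66.0 CPM in the eGFP controls, 142, 50.8 and 31.1 with NFAT5 and 120.5, 99.2 and 47.4 with CA-RIT NFAT1. Oas1a was at 133 and 47.2 CPM in the eGFP controls, 57.0, 50.7 and 65.0 with NFAT5 and 47.4, 67.9 and 35.4 with CA-RIT NFAT1. Oas3 was lowest and Oas1a highest in the same library, eGFP control 3. Oasl2, whose libraries overlapped, was at 2.57 and 2.51 CPM in the eGFP controls, 6.77, 2.24 and 8.17 with NFAT5 and 6.53, 2.38 and 2.87 with CA-RIT NFAT1. Of the Oasl2 reads, 0% (eGFP control 3) to 79.4% (NFAT5 8) went to coding transcripts, so its gene total is not a constant share of coding RNA. Oasl1 ran from 1.79 to 16.5 CPM and Oas2 from 0 to 2.10. Oas1a has close copies, so its reads are uncertain. For Oasl1 the estimated reads moved between transcripts: Oasl1-201 held 95.7% in eGFP control 3 and 0% in eGFP control 6, where Oasl1-202 held 95.9%.

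The IFIT proteins bind foreign RNA caps, and their genes form a cluster on chromosome 19. Ifit3 (chr19:34583531-34588731) was at 51.7 and 40.3 CPM in the eGFP controls, 60.1, 19.0 and 24.3 with NFAT5 and 50.5, 30.3 and 2.30 with CA-RIT NFAT1. Ifit1 (chr19:34640871-34650009) was at 40.4 and 41.1 CPM in the eGFP controls, 63.1, 15.4 and 7.195 with NFAT5 and 51.6, 32.3 and 6.06 with CA-RIT NFAT1. These 2 genes had the largest spread within the vector groups of the 43 members with a mean of 5 CPM or more: CA-RIT NFAT1 9 had 2.30 CPM of Ifit3 where CA-RIT NFAT1 2 had 50.5. Ifit2 ran from 0 in eGFP control 3 to 28.1 CPM and Ifit3b from 0.506 to 10.7. Ifit3 and Ifit3b are near copies, and their split is uncertain.

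Isg15 (chr4:156199424-156200818) encodes a ubiquitin-like protein, and Usp18 the protease that removes it and also damps the type I receptor. Isg15 was at 151 and 36.1 CPM in the eGFP controls, 48.3, 20.5 and 31.5 with NFAT5 and 39.6, 26.2 and 17.6 with CA-RIT NFAT1. Usp18 was at 243 and 122 CPM in the eGFP controls, 178, 65.9 and 106 with NFAT5 and 161, 155 and 111 with CA-RIT NFAT1. eGFP control 3 was highest of the 8 libraries for both genes. With eGFP control 6 as the only reference, the NFAT5 and CA-RIT NFAT1 values of Isg15 lay on both sides of it.

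The antiviral effectors differed from one another. Bst2 was at 184 and 89.1 CPM in the eGFP controls, 127, 86.9 and 111 with NFAT5 and 98.2, 91.1 and 107 with CA-RIT NFAT1. Cmpk2, a mitochondrial nucleotide kinase encoded beside Rsad2 on chromosome 12, was at 11.0 and 37.0 CPM in the eGFP controls, 69.1, 28.6 and 41.3 with NFAT5 and 63.3, 64.85 and 44.3 with CA-RIT NFAT1. Isg20, an exonuclease that degrades RNA, was at 51.6 and 57.4 CPM in the eGFP controls, 47.9, 31.1 and 33.0 with NFAT5 and 49.01, 29.75 and 22.6 with CA-RIT NFAT1. Cmpk2 was higher in every CA-RIT NFAT1 library than in both eGFP controls, and Isg20 was lower in every library of both vectors. Rsad2 (chr12:26442746-26456452), viperin, which makes a chain-terminating nucleotide, was at 3.48 and 0.850 CPM in the eGFP controls, 28.5, 4.48 and 24.8 with NFAT5 and 16.8, 12.8 and 11.6 with CA-RIT NFAT1. Every vector library exceeded both eGFP controls, though NFAT5 5 was close to eGFP control 3. Mx1 ran from 0 in eGFP control 3 to 25.5 CPM in eGFP control 6. Mx2 was at 0 and 0 CPM in the eGFP controls, 1.41, 0.906 and 0 with NFAT5 and 1.11, 0 and 0 with CA-RIT NFAT1. GENCODE lists Mx2 as a polymorphic pseudogene, and 0% of its reads in NFAT5 1 and CA-RIT NFAT1 2 went to transcripts marked as coding. Of the Mx1 reads, 4.31% (CA-RIT NFAT1 9) to 70.0% (NFAT5 8) went to coding transcripts in the 7 libraries with reads, so the gene total does not stand for a constant share of coding RNA.

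Of the interferon-induced GTPases, which attack the membranes around intracellular pathogens, the guanylate-binding protein gene Gbp7 was at 111 and 158 CPM in the eGFP controls, 213, 180.4 and 135 with NFAT5 and 209.6, 181 and 114 with CA-RIT NFAT1. Igtp, of the immunity-related GTPase family, was at 184 and 122 CPM in the eGFP controls, 176, 145 and 120.1 with NFAT5 and 161, 162 and 144 with CA-RIT NFAT1. These were even levels, with overlapping groups. Irgm1 (chr11:48861968-48871683), a regulator of the others, was at 158 and 95.5 CPM in the eGFP controls, 104, 103 and 81.8 with NFAT5 and 98.7, 82.7 and 70.6 with CA-RIT NFAT1. Gbp3, a guanylate-binding protein gene, was at 74.2 and 84.2 CPM in the eGFP controls, 96.8, 68.8 and 60.5 with NFAT5 and 81.9, 85.5 and 94.05 with CA-RIT NFAT1. Iigp1 was near the limit, at 0.493 and 3.72 CPM in the eGFP controls, 1.53, 1.65 and 2.36 with NFAT5 and 4.58, 2.695 and 4.15 with CA-RIT NFAT1. eGFP control 3 was highest for Irgm1 and lowest for Iigp1, and the Iigp1 values with CA-RIT NFAT1 all exceeded those with NFAT5. Gbp2 ran from 38.2 to 118 CPM, Gbp4 from 43.1 to 113, Gbp5 from 11.0 to 23.5 and Ifi47 from 21.1 to 66.2. For Gbp4 9.37% to 82.9% of the reads went to coding transcripts, the rest mainly to Gbp4-202, which is marked for decay.

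The remaining induced genes included the members steadiest within the vector groups, Phf11b and Phf11d, and also Parp14, whose pooled SD over both vector groups was 1.05 in log2(CPM + 1). Phf11b (chr14:59320964-59341351) was at 170.4 and 173 CPM in the eGFP controls, 176, 189.9 and 182 with NFAT5 and 190.3, 196 and 218 with CA-RIT NFAT1. Ifi35 (chr11:101448407-101458698), an adaptor of innate signalling, was at 241 and 104 CPM in the eGFP controls, 101, 113 and 114 with NFAT5 and 109.6, 92.2 and 94.2 with CA-RIT NFAT1. Rtp4, a receptor chaperone that binds RNA, was at 115.5 and 49.9 CPM in the eGFP controls, 69.0, 54.3 and 48.1 with NFAT5 and 48.3, 43.95 and 40.0 with CA-RIT NFAT1. Ifi35 lay within 92.2 to 114 CPM in 7 libraries and at 241 in eGFP control 3, and Rtp4 was also highest there. Phf11b in CPM was ordered without overlap, lowest in the eGFP controls and highest with CA-RIT NFAT1. Its fitted log2 fold changes, which use a further scaling between libraries, were each smaller than their SE. They were -0.02 ± 0.19 (NFAT5) and 0.11 ± 0.19 (CA-RIT NFAT1) against eGFP, and 0.13 ± 0.17 for CA-RIT NFAT1 against NFAT5. Parp14, an ADP-ribosyltransferase, was at 22.1 and 28.3 CPM in the eGFP controls, 56.4, 11.6 and 19.4 with NFAT5 and 36.6, 14.3 and 8.90 with CA-RIT NFAT1. Ifi44 was at 0 and 0 CPM in the eGFP controls, 0, 0 and 1.705 with NFAT5 and 0.741, 1.14 and 0 with CA-RIT NFAT1. The groups overlapped for both genes. Phf11d ran from 27.2 to 36.0 CPM, Xaf1 from 59.3 to 107 and Trim30a from 45.2 to 164. Phf11b and Phf11d are paralogs, so their split is uncertain.

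Schlafen genes limit lymphocyte growth and viral translation and lie in a cluster on chromosome 11. Slfn1 was at 51.7 and 73.1 CPM in the eGFP controls, 90.0, 51.8 and 57.65 with NFAT5 and 88.0, 72.95 and 36.4 with CA-RIT NFAT1. Slfn8 was at 14.0 and 28.0 CPM in the eGFP controls, 26.8, 6.77 and 17.1 with NFAT5 and 28.6, 20.1 and 13.25 with CA-RIT NFAT1. Slfn5 ran from 0.2515 to 11.1 CPM. In all 3 genes NFAT5 1 and CA-RIT NFAT1 2 were again the highest of their groups, and the groups overlapped.

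**Figure D2:**
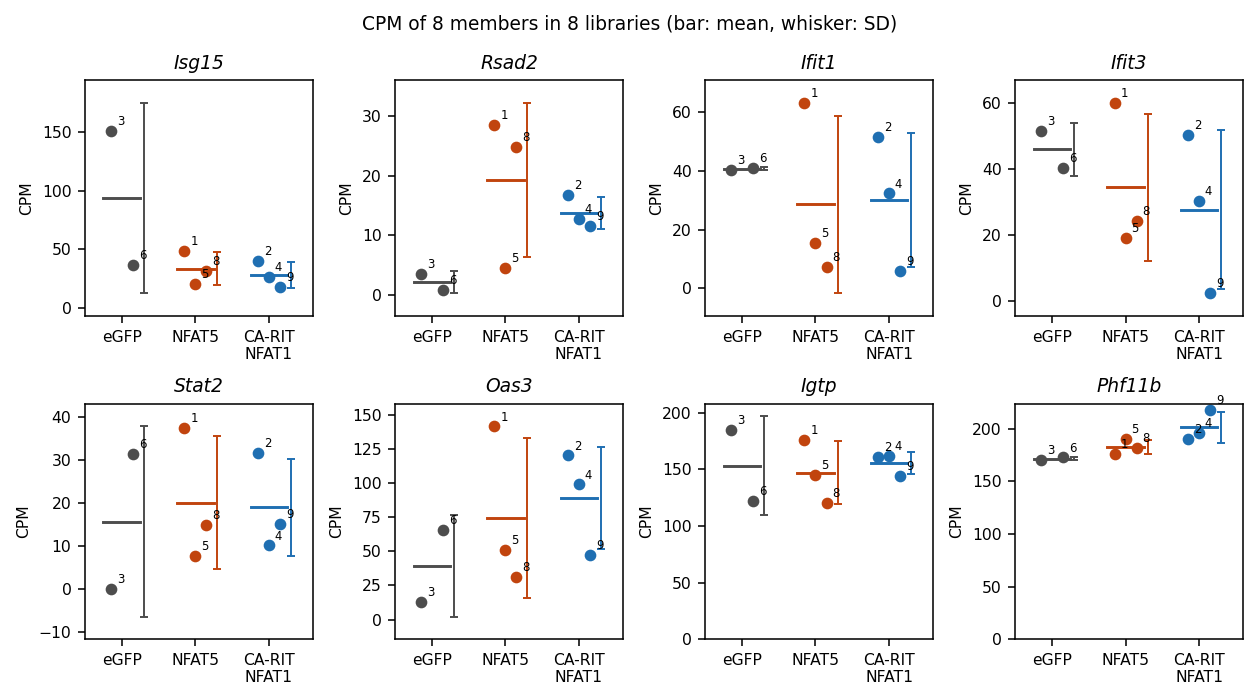
CPM (vertical axis) of 8 members, chosen after their values were seen, in the 8 libraries compared. Points are libraries with their number, bars are group means and whiskers are SD (n = 2, 3 and 3). Isg15 is high in eGFP control 3 alone, Rsad2 is higher in each vector library than in both controls, and Ifit1 and Ifit3 spread widely within both vector groups.

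The first comparison asked what NFAT5 overexpression did relative to the eGFP control, for which 3 and 2 libraries were used. Rsad2 was the member with the smallest p on the higher side: its mean was 19.3 ± 12.9 CPM (SD, n = 3) with NFAT5 and 2.16 ± 1.86 (n = 2) in the controls, a log2 fold change of 2.99 ± 0.94 (SE). On the lower side Isg15 came first, at 33.4 ± 14.0 CPM against 93.7 ± 81.3, a log2 fold change of -1.64 ± 0.62. Neither passed the test: the adjusted p was 0.654 for both by edgeR's quasi-likelihood test with Benjamini-Hochberg adjustment over 14473 genes. Next on the lower side were Ifi35 at -0.79 ± 0.35, Isg20 at -0.66 ± 0.36 and Irgm1 at -0.52 ± 0.29. On the higher side Mx2 and Ifi44, which had 0 reads in both controls and are given as bounds with the counts, came after Rsad2 by p, and then Cmpk2 at 0.87 ± 0.53.

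No member passed the threshold of 0.05 in this comparison (0 of 49), and neither did any other gene (0.0%). Nfat5 itself was thus not called, at 47.99 to 87.0 CPM with NFAT5 against 1.12 and 6.88 in eGFP control 3 and 6. A count of 0 therefore does not show that the members were unchanged. At an unadjusted p under 0.05 there were 2 members, against 7.26% of genes: Rsad2 on the higher side (3.25% of genes) and Isg15 on the lower (4.01%). DESeq2 called 104 genes and 0 members, with 3 members and 1445 of 14473 genes at an unadjusted p under 0.05. By limma voom 0 genes were called, with 1 member and 911 genes at that level. The members' fitted log2 fold changes had a median of -0.01, with 24 higher and 25 lower, and all genes a median of 0.08 with 53.9% higher. In CPM, 2 members were higher in all 3 NFAT5 libraries than in both controls (Rsad2 and Phf11b; 14.2% of genes) and 1 was lower in all (Isg20; 8.15%), together 3 of 49 against 22.4% of genes. After scaling by TMM, the trimmed mean of M-values, Phf11b was at -0.02 ± 0.19, so its order in CPM does not hold on that scale. Mx2 and Ifi44 had 0 reads in both controls: against the 3-read floor of the shallower control (0.121 CPM), the NFAT5 mean of Mx2 was at least 6.36-fold higher and that of Ifi44 at least 4.68-fold higher, although NFAT5 libraries were also at 0 for each. By role the medians ran from -1.21 for the ISG15 system, with 2 of 2 lower, to 0.48 for the PYHIN genes, with 5 of 5 higher. The PYHIN count rested on the settings: it was 4 of 5 with effective length offsets (Ifi203 at -0.11), 4 of 5 without NFAT5 8 and 3 of 5 without eGFP control 3. The IFIT, OAS, sensor and GTPase groups had members on both sides.

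The second comparison set CA-RIT NFAT1 against the same eGFP controls (3 and 2 libraries), so the controls are shared and the 2 sets of values are not independent. Rsad2 again had the smallest p on the higher side, at 13.7 ± 2.70 CPM (n = 3) against 2.16 ± 1.86 (n = 2), a log2 fold change of 2.49 ± 0.92. Cmpk2 followed at 1.17 ± 0.54, with 57.5 ± 11.5 against 24.0 ± 18.4 CPM, and Ifih1 at 1.05 ± 0.54, with 28.9 ± 5.65 against 13.1 ± 10.5 CPM. On the lower side stood Isg15 at -1.92 ± 0.62, Rtp4 at -1.06 ± 0.37, Ifi35 at -0.96 ± 0.35 and Irgm1 at -0.73 ± 0.29, with Isg20 at -0.82 ± 0.36. The adjusted p was 0.68 for each of these by edgeR, so none passed.

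Of the 49 members 0 were called, and 0.0% of all genes. At an unadjusted p under 0.05 there were 6 members, against 6.44% of genes: Rsad2 on the higher side (3.28% of genes), and Isg15, Rtp4, Ifi35, Irgm1 and Isg20 on the lower side (5 members, 3.16% of genes). DESeq2 called 60 genes and 0 members, with 8 members and 1328 of 14473 genes at an unadjusted p under 0.05. By limma voom 0 genes were called, with 5 members and 955 genes at that level. The members' median was -0.04, with 24 higher and 25 lower, and that of all genes 0.10, with 54.6% higher. In CPM 5 members were higher in each CA-RIT NFAT1 library than in both controls (14.2% of genes): Rsad2, Ifih1, Cmpk2, Eif2ak2 and Phf11b. Isg20 and Rtp4, 2 members, were lower in each (6.67%), which makes 7 of 49 in either direction against 20.9% of genes. After TMM scaling Phf11b was at 0.11 ± 0.19. The CA-RIT NFAT1 means of Mx2 and Ifi44 were at least 3.05-fold and 5.16-fold higher than the floor of the controls, with CA-RIT NFAT1 libraries at 0 for each. The role medians ran from -1.21 (ISG15 system) to 0.47 (antiviral effectors). The PYHIN genes were 5 of 5 higher here as well, with a median of 0.26, but 4 of 5 with effective length offsets, 3 of 5 without eGFP control 3 and 2 of 5 without CA-RIT NFAT1 2 or with all 10 libraries.

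Most of the lower values in both comparisons rested on eGFP control 3, though that of Isg20 with NFAT5 stayed between -0.84 and -0.53 whichever library was left out. Without eGFP control 3, Isg15 was at -0.15 with NFAT5 and -0.43 with CA-RIT NFAT1, Ifi35 at 0.045 and -0.12, Irgm1 at -0.02 and -0.23, and Rtp4 at -0.22 with CA-RIT NFAT1. Usp18 was then at -0.10 and 0.18, against -0.79 and -0.50 with both controls. Without eGFP control 6, the fit, in which the lone control is assumed to vary like the other groups, called 3294 of 16011 genes for NFAT5 and 3410 for CA-RIT NFAT1 (20.6% and 21.3%), with medians over all genes of 0.45 and 0.49. Among them were 6 members higher and 7 lower with NFAT5 (15.4% and 5.14% of genes) and 5 higher and 7 lower with CA-RIT NFAT1 (15.9% and 5.37%). The 7 lower ones were the same genes in both: Isg15, Oas1a, Rtp4, Ifi35, Ifi47, Irgm1 and Bst2. Of the higher ones, Ifit2, Mx1, Stat2, Ifih1 and Cmpk2 stood in both, and Gbp4 in the NFAT5 comparison; Ifit2, Mx1 and Stat2 were listed at 0 in eGFP control 3. The higher values of the fit with both controls moved with the choice of control as well. Cmpk2 was at 0.29 (NFAT5) and 0.59 (CA-RIT NFAT1) without eGFP control 3 and at 1.90 and 2.20 without eGFP control 6. Ifih1 with CA-RIT NFAT1 was at 0.44 and 2.16 in the same order. Rsad2 went the other way, at 4.46 and 3.96 without eGFP control 3 and at 2.29 and 1.80 without eGFP control 6.

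The third comparison set the vectors against each other, with 3 libraries each and no control. Ifih1 was at 28.9 ± 5.65 CPM with CA-RIT NFAT1 and 19.1 ± 5.17 with NFAT5 (n = 3 each), a log2 fold change of 0.58 ± 0.47. Iigp1 was at 3.81 ± 0.99 against 1.85 ± 0.45 CPM, a log2 fold change of 1.02 ± 0.82, and Eif2ak2 and Gbp3 followed at 0.36 ± 0.34 and 0.20 ± 0.22. Lower values were those of Oasl2 at -0.57 ± 0.69, Parp14 at -0.56 ± 0.67, Rtp4 at -0.39 ± 0.34 and Irgm1 at -0.21 ± 0.26. The smallest p of a member was 0.248 by edgeR, and the adjusted p was 1 for all 49. With all 10 libraries, which adds CA-RIT NFAT1 10, several of these values moved by over 1.5 times: Ifih1 to 0.16, Iigp1 to 0.60, Eif2ak2 to 0.13, Oasl2 to -0.99, Parp14 to -0.98, Rtp4 to -0.80 and Irgm1 to -0.48, and Gbp3 turned to -0.21.

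Here too 0 of 49 members and 0.0% of genes were called. No member was at an unadjusted p under 0.05 by edgeR, against 1.13% of genes (0.788% higher and 0.339% lower). By DESeq2 no member and 169 of 14473 genes were at that level. By limma voom 2 of 49 members and 988 of 14473 genes were. DESeq2 called 1 gene, which was no member. The members' median was -0.08, with 20 higher and 29 lower, against 0.00 for all genes, of which 50.5% were higher. In CPM 4 members were higher in every CA-RIT NFAT1 library than in every NFAT5 library (4.06% of genes), namely Iigp1, Eif2ak2, Phf11b and Phf11d. As 0 were lower in every one (2.78%), 4 of 49 lay apart in either direction against 6.85% of genes. After TMM scaling Phf11b was at 0.13 ± 0.17 and Phf11d at 0.15 ± 0.24. All 5 PYHIN genes had fitted values below 0, from -0.22 to -0.07, but all 5 were above 0 without CA-RIT NFAT1 9 and 2 of 5 without NFAT5 1.

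**Figure D3:**
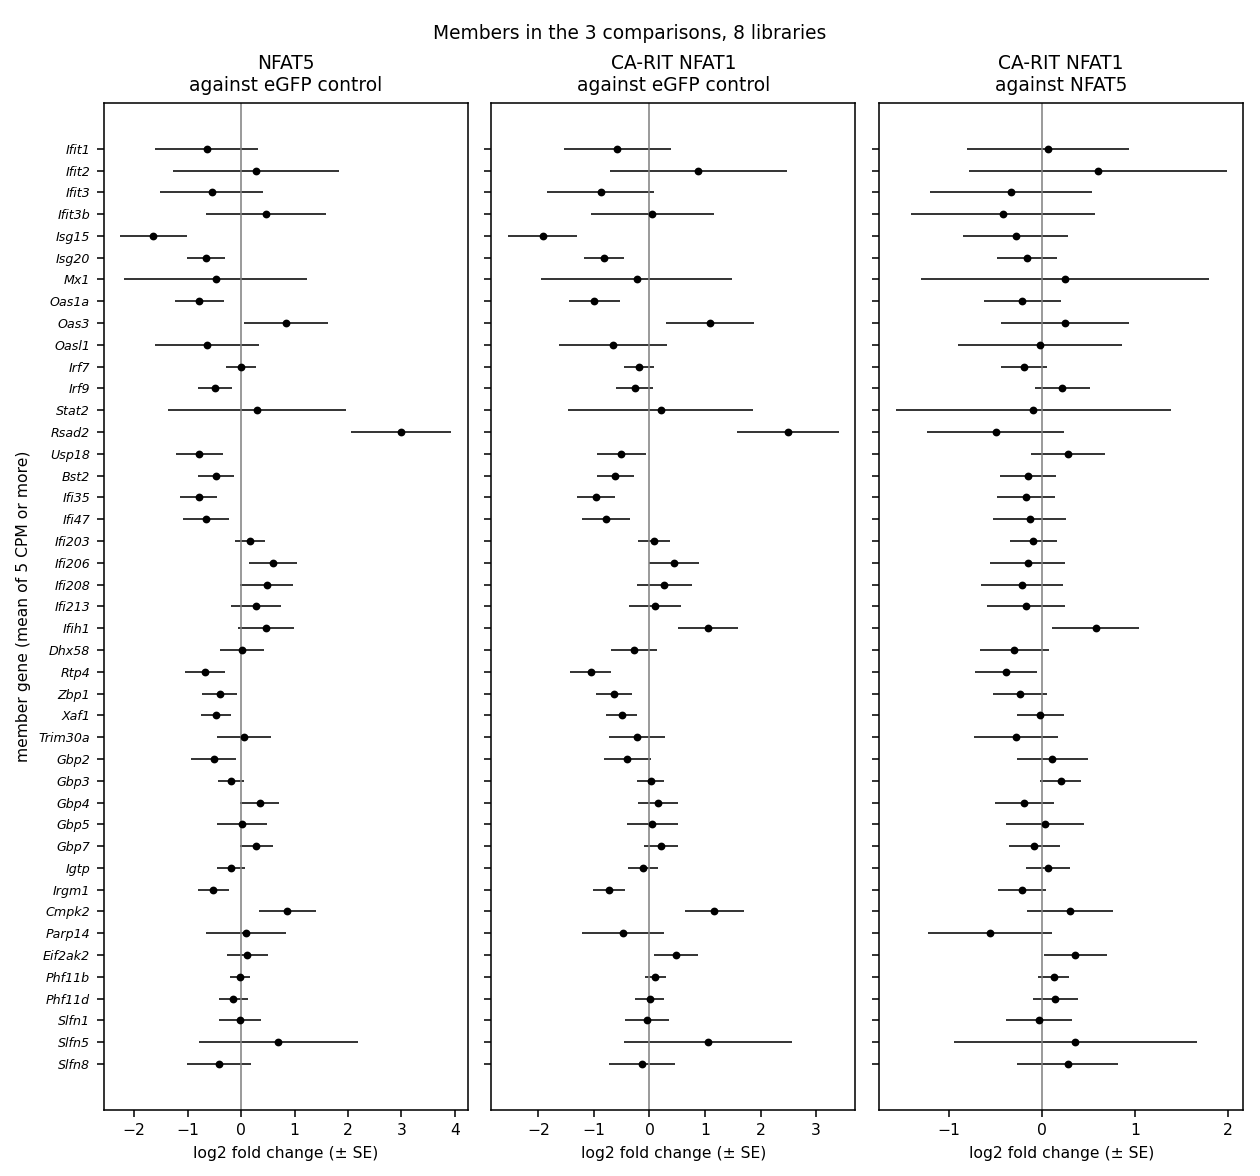
Log2 fold change with its standard error (horizontal axis) of the 43 members with a mean of 5 CPM or more (vertical axis) in the 3 comparisons of 8 libraries; the scales differ between panels. Rsad2 lies farthest to the right and Isg15 farthest to the left in both comparisons with eGFP, and the values of the vectors against each other gather around 0.

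Averaged over the 49 members, the level in log2(CPM + 1) was 4.82 ± 0.34 (SD, n = 2) in the eGFP controls, 4.96 ± 0.42 (n = 3) with NFAT5 and 4.97 ± 0.44 (n = 3) with CA-RIT NFAT1. The differences of 0.14, 0.16 and 0.02 were smaller than the spread within groups, a pooled SD of 0.40. With a pseudocount of 0.1 in place of 1 they were 0.31, 0.35 and 0.04, with a pooled SD of 0.53. The single libraries were at 4.57 and 5.06 in the eGFP controls, at 5.43, 4.645 and 4.796 with NFAT5 and at 5.41, 5.00 and 4.52 with CA-RIT NFAT1. NFAT5 1 and CA-RIT NFAT1 2 were the highest of their groups, and the groups overlapped. In bulk samples, fewer cells reading a gene and less of its RNA per cell cannot be told apart.

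The same library led its group for most members. Of the 43 members with a mean of 5 CPM or more, NFAT5 1 was the highest NFAT5 library in 35 (81.4%), against 45.4% of the 9298 genes at that level. CA-RIT NFAT1 2 was the highest of its group in 34 (79.1%, against 40.1%), both held in 30 (69.8%, against 25.9%), and CA-RIT NFAT1 9 was the lowest in 32 (74.4%, against 37.0%). Ifit1 was 8.77-fold higher in NFAT5 1 than in NFAT5 8 and 8.51-fold higher in CA-RIT NFAT1 2 than in CA-RIT NFAT1 9. For Oas3 the ratios were 4.56 and 2.54, for Trim30a 3.29 and 2.21, and for Gbp2 2.54 and 1.87. Phf11b, with ratios of 0.97 and 0.87, did not follow this order. Related lists followed this order to differing degrees. Of 15 nucleic acid sensing genes at that level, NFAT5 1 was highest for 12, CA-RIT NFAT1 2 for 12 and both for 9. Of 23 genes of interferon ligands, receptors and signalling the shares were 73.9%, 69.6% and 52.2%, of 58 further interferon-induced genes 56.9%, 72.4% and 41.4%, and of 20 class I antigen presentation genes 55.0%, 65.0% and 55.0%. CA-RIT NFAT1 9 was the lowest of its group for 43.5% of the ligand, receptor and signalling genes and 53.3% of the sensing genes. For the further induced and the class I genes these shares were 69.0% and 55.0%. The members were not independent of each other in their order, since all were read in the same libraries.

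**Figure D4:**
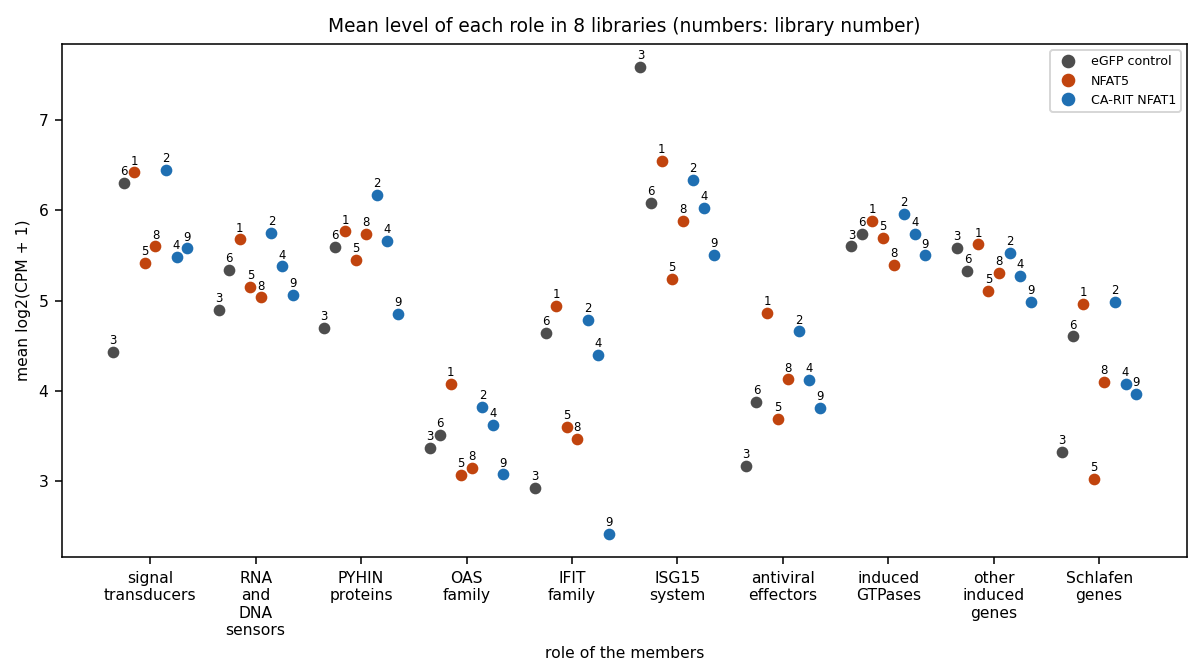
Mean log2(CPM + 1) of the members of each role (horizontal axis) in the 8 libraries compared; points are libraries, coloured by group and marked with their number. NFAT5 1 and CA-RIT NFAT1 2 lie at the top of their groups in each of the 10 roles, and eGFP control 3 is the lowest of the 8 for the signal transducers and the highest for the ISG15 system.

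Transcript length moved with these differences between libraries. Between eGFP control 3 and 6, the median difference in log2(CPM + 1) was 0.73 for the 8 members under 1500 bases, -0.02 for the 21 of 1500 to 3000 bases and -1.29 for the 14 of 3000 bases or more. All genes of these lengths showed 0.48, -0.23 and -1.02. Isg15, Bst2, Rtp4 and Ifi35, all high in eGFP control 3, have mean transcript lengths of 703, 788, 1106 and 1351 bases, and Stat2, Ifih1 and Oas3, low there, of 4125, 3821 and 4552. Of the 8 members under 1500 bases, 5 were higher in eGFP control 3 than in eGFP control 6, and Isg20, Phf11b and Phf11d, with 896, 1184 and 1302 bases, were not. Between NFAT5 1 and NFAT5 8 the members' medians were 0.35, 0.74 and 0.72, where all genes showed -0.36, 0.03 and 0.55. For CA-RIT NFAT1 2 minus 9 they were 0.24, 0.89 and 0.90, where all genes showed -0.26, -0.03 and 0.37. The members stood above all genes of like length in each class of these 2 pairs. Each pair set the library most often highest for the members against the one most often lowest. The direction of this gap was therefore largely fixed by the choice of pairs. When each library's trend with length was removed from the fit, a setting chosen after seeing the data, edgeR called 0 members in any comparison. At an unadjusted p under 0.05 there were 1, 5 and 0 members, against 1224, 1036 and 183 of 14473 genes. The members' medians were -0.25, -0.18 and -0.09.

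**Figure D5:**
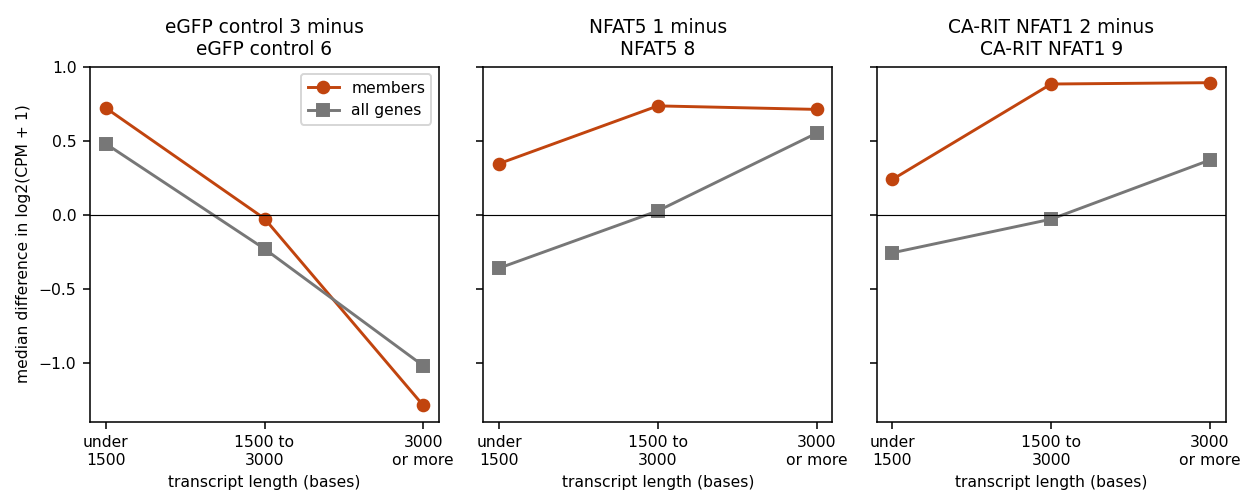
Median difference in log2(CPM + 1) between 2 libraries of a group (vertical axis) in 3 classes of transcript length (horizontal axis), for the members and for all genes with a mean of 5 CPM or more. In the eGFP pair both lines fall with length, from 0.73 to -1.29 for the members, and in the vector pairs the members lie above all genes in each class. The vector pairs set the library most often highest for the members against the one most often lowest, which largely fixes that direction.

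The members varied more within groups than genes in general. Over both vector groups, the pooled SD of log2(CPM + 1) had a median of 0.49 for the 43 members and 0.32 for the 9298 genes. It was largest for Ifit3 (1.61), Ifit1 (1.51), Slfn5 (1.34) and Oasl1 (1.06), and smallest for Phf11b (0.0821), Phf11d (0.0909), Ifi35 (0.118) and Igtp (0.204). By role the median was 1.15 for the IFIT and 0.92 for the OAS family, and 0.29 for the GTPases and 0.21 for the other induced genes. Rsad2 was at 0.97.

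In CA-RIT NFAT1 10, 26 of the 49 members had 0 reads, among them Phf11b, Rsad2, Ifit1, Ifit3, Stat2 and Oas1a, and Igtp was at 0.0308 CPM. Others were read within the range of the 8 libraries or above it: Usp18 was at 118 CPM, Bst2 at 119, Ifi35 at 99.3, Slfn8 at 26.1, Oasl1 at 13.2 and Ifi204 at 14.8, the highest Ifi204 value of the 10 libraries. All 13 macrophage markers were read in that library, and Cd8a and the T cell receptor constant region gene Trbc2 were at 0.0308 and 41.2 CPM. Their part in the member values was not tested. In eGFP control 7 a single member, Gbp2, had a read. With all 10 libraries, 0 members and 0 genes were called in each comparison. At an unadjusted p under 0.05 by edgeR there were 0, 1 and 0 members, against 374, 609 and 181 of 13783 genes.

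Markers of other cells moved with single libraries of the 8 as well. The 12 dendritic cell markers summed to 1793 CPM in eGFP control 3, with 2 at 0 there, and to 291 in eGFP control 6. They summed to 252 to 499 CPM with NFAT5 and 293 to 412 with CA-RIT NFAT1. The highest of them was Cd74 in eGFP control 3 (564.7 CPM) and NFAT5 8 (78.0 CPM), and Itgax or Ccr7 in the other libraries compared. The 12 markers of mast cells and the P511 tumour summed to 250.2 CPM in eGFP control 3 and 56.6 in eGFP control 6, to 152 to 267 with NFAT5 and to 79.2 to 224 with CA-RIT NFAT1, with 4 to 6 of them at 0 in each library. The 13 macrophage markers summed to 242 and 112 CPM in the eGFP controls, 65.7 to 187 with NFAT5 and 83.3 to 275 with CA-RIT NFAT1, and Lyz2 was at 0 in both controls. Cd68 alone was at 108 of the 112 CPM in eGFP control 6, where 7 of the 13 were at 0. In NFAT5 5 it was at 44.45 of 65.7 CPM, with 5 at 0. The 7 neutrophil markers summed to at most 4.54 CPM and the 6 B and NK cell markers to at most 9.43. Whether these cells contributed to the member values was not tested.

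The genes upstream of the set were looked at from lists written for this purpose. All 18 type I and III interferon genes found, 13 of them Ifna genes, had 0 reads in all 10 libraries, which allows up to 3 reads, 0.0822 to 0.160 CPM in the 8. Ifng, interferon gamma, was at 811 and 384 CPM in the eGFP controls, 254, 387 and 362 with NFAT5 and 388, 306 and 349 with CA-RIT NFAT1. eGFP control 3 was highest, and NFAT5 5 and CA-RIT NFAT1 2 were level with eGFP control 6. Its log2 fold changes were -0.96 ± 0.35 and -0.93 ± 0.35 against eGFP (adjusted p = 0.654 and 0.68 by edgeR) and 0.03 ± 0.32 between the vectors. Ifng thus passed the test in no comparison. Ifnar1, a type I receptor chain, was at 39.5 and 94.2 CPM in the eGFP controls, 152, 83.8 and 72.2 with NFAT5 and 125, 96.15 and 68.1 with CA-RIT NFAT1. Ifngr1, a chain of the interferon gamma receptor, was at 572 and 587 CPM in the eGFP controls, 749, 419.5 and 471 with NFAT5 and 686, 499 and 519.8 with CA-RIT NFAT1. NFAT5 1 was the highest of the 8 libraries in both genes. Irf1, an early target of interferon gamma, was at 119 and 239.9 CPM in the eGFP controls, 153, 159 and 149 with NFAT5 and 163, 121 and 132 with CA-RIT NFAT1, with eGFP control 6 highest.

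Of the 43 ligand, receptor and signalling genes 24 were tested, and 0 were called in any comparison, with 13, 16 and 11 higher. Irf8 had a log2 fold change of -1.10 ± 0.37 with NFAT5 against eGFP (adjusted p = 0.654 by edgeR), and Ptpn6, the phosphatase SHP-1, one of 0.73 ± 0.20 between the vectors (adjusted p = 1 by edgeR). Of 18 nucleic acid sensing genes 16 were tested and 0 called, with 11, 10 and 8 higher. All 20 class I antigen presentation genes were tested and 0 called. In each comparison with eGFP 15 were lower and 5 higher, where 53.9% (NFAT5) and 54.6% (CA-RIT NFAT1) of all genes were higher. The medians of the 20 were -0.32 and -0.36, against 0.00 between the vectors. Among them H2-T23, a non-classical class I gene, was at -0.77 ± 0.26 and -0.69 ± 0.26, with 890.3 and 673 CPM in the eGFP controls, 597.5, 464 and 435 with NFAT5 and 684, 487 and 427 with CA-RIT NFAT1. Its highest value was again that of eGFP control 3. H2-K1, H2-Q7, Psmb10 and Psme1 were also highest there, while Nlrc5, Erap1 and Calr had the lowest value of the libraries compared there. Fold changes of this list without eGFP control 3 are not given here. Of 73 further interferon-induced genes 66 were tested and 0 called, with 34, 31 and 28 higher and medians of 0.00, -0.05 and -0.06. At an unadjusted p under 0.05 by edgeR, 3 were higher and 3 lower with NFAT5 against eGFP (3.25% and 4.01% of all genes). With CA-RIT NFAT1 they were 0 and 7 (3.28% and 3.16% of all genes). Lower ones included Ly6a at -0.97 ± 0.30 with NFAT5 and Plac8 at -0.79 ± 0.22 with CA-RIT NFAT1. In CPM, Ly6a was lower in each library of both vectors than in both controls, and Plac8 was lower in each CA-RIT NFAT1 library. Such an order held for 8.15% of genes with NFAT5 and 6.67% with CA-RIT NFAT1. On the higher side, Apol9b and Ciita were read in every NFAT5 library, at low means of 3.09 and 1.01 CPM, and at 0 in both controls (14.2% of genes were higher without overlap).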

How the data were processed

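RNA of sorted tumour CD8 T cells was sequenced in 10 libraries of 3 vector groups. Salmon 0.14.1 and the builds mm10 and GRCm38.p6 are named in the submitters' processing notes. Trimming steps and program options are not stated in those sources. The deposited estimated counts, per the file headers, are Salmon's reads for each transcript and hold fractions. They were summed by gene and rounded for the tests. The deposited TPM values served to compare levels of different genes. Effective lengths, the deposited measure of other kind, entered 1 alternative only. Of 140919 transcripts 139966 matched the M21 release of GENCODE. The unmatched 953 held no more than 0.292% of any library's reads.

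CPM were taken over all matched genes, and log2 levels used a pseudocount of 1. The tests were edgeR 4.0.16 quasi-likelihood fits in R 4.3.3, scaled by TMM, filtered by filterByExpr and with Benjamini-Hochberg adjustment at 0.05 over 14473 genes, on 8 libraries of all 3 groups (a biological coefficient of variation of 0.725). eGFP control 7 and CA-RIT NFAT1 10 were left out because earlier results had shown that they stand apart. The edgeR fit was tried on simulated counts for NFAT5 against eGFP control only, with no length trend in them. Its outcome is not given here. The SE of a fold change was taken from the fold change and its F statistic.

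The members, lists and tests were chosen with earlier results of these data known. Library values are given for the 2 members of each role with the highest mean CPM and the 4 members with the smallest p in each direction of each comparison, and otherwise where stated. In the pathway lists, the rule took the 2 lowest p values of either direction, and a few of these genes are named. Alternatives were all 10 libraries, each library left out, the compared groups alone, RLE and upper-quartile scaling, other filters, DESeq2 1.42.0, limma 3.58.1 voom with quality weights and effective length offsets. Removal of the length trend (lowess, span 0.3) was added after seeing the data. Counting error alone underlies the limit of 3 reads for a gene at 0.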

Additional observations from a re-analysis of the deposited data

Results flagged for a closer look

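Among the 4 CA-RIT NFAT1 libraries, a library far from the others was looked for in 33 results by Dixon's test at its 95% critical value, and 11 were found. Chance gives about 1 in 20 such groups when results are independent, which genes read in the same 4 libraries are not. In 10 of the 11 the library apart was CA-RIT NFAT1 10, the one with almost no T cell reads. That library was already known to stand apart, so these 10 were largely settled beforehand and cannot be set against the 1 in 20. Its log2(CPM + 1) was 0 for Gbp3, Ifi206, Ifih1, Oas1a, Phf11b, Rsad2 and Rtp4, 0.0437 for Igtp, 0.817 for Ifi203 and 1.64 for Zbp1, below the other 3 libraries in each. In the remaining result CA-RIT NFAT1 2 was apart, with 1.08 for Mx2 where the other 3 libraries had 0 reads. With those 3 tied at 0, any value above 0 would be found, whatever its size.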

How the results depend on the processing

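Counts of members past the threshold stayed at 0 in each comparison under all 10 libraries, the compared groups alone, other scalings and filters, DESeq2, limma voom, effective length offsets, removal of the length trend and leaving out any library but one. With each library left out in turn, the count ranged from 0 to 6 higher and 0 to 7 lower for NFAT5 against eGFP and from 0 to 5 and 0 to 7 for CA-RIT NFAT1 against eGFP. The upper values came without eGFP control 6, when the only control was eGFP control 3. Among the members named by p, Ifi35 ran from -1.305 to 0.045 for NFAT5 against eGFP as libraries were left out, above 0 without eGFP control 3. For CA-RIT NFAT1 against NFAT5, Gbp3 turned to -0.21 with all 10 libraries, and Parp14 ran from -1.303 to 0.32, above 0 without NFAT5 1. The cause was not tested. Leaving out libraries moved the members' median between -0.37 and 0.10, -0.33 and 0.15, and -0.26 and 0.16 in the 3 comparisons. Under limma voom the median over all genes moved from 0.08 to 0.19 for NFAT5 against eGFP. The shortened ISRE core raised the share of member windows from 44.7% to 65.8%, since it is looser by construction. No paired analysis was possible because each library number is used once in the series. Only 2 usable controls, far apart in their length trend, limit every comparison with eGFP.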
